A study of Mus musculus with 8 samples.

Results

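Neutrophils and macrophages were compared within 1 tumor capture of a single-cell RNA series on mice carrying an oropharyngeal carcinoma. A tumor cell was called a neutrophil where S100a8 and S100a9 together made up at least 1% of its gene UMIs (unique molecular identifiers, each a captured transcript) and the C1q genes C1qa, C1qb and C1qc gave at most 1 UMI. It was called a macrophage where the C1q genes gave at least 3 UMIs and S100a8 and S100a9 stayed under 1%. Of 462 tumor cells among 20012 cells in the series, 116 were neutrophils, 90 were macrophages and 256 met neither definition.

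The mice were female and C57BL6/J, with MOPC cells, a mouse oropharyngeal cancer line, injected under the skin of the flank, and each tissue held wild-type mice and mice with a gene knockout given in the labels as Genotype_02. Tumors were digested with enzymes for 45 min at 37 °C, cells of each mouse were marked with a hashtag antibody, and living cells were sorted that were either Gr1-positive and lineage-negative or Gr1-negative and cKit-positive. Both cell types thus came from the same digestion, sort, capture and sequencing library. No hashtag is tied to a mouse or a genotype in the labels, so both classes are a mixture of genotypes in unknown parts, and 1 hashtag was taken as 1 mouse. Cells were tied to the tumor by the number 4 at the end of their barcodes, which matches the number in the tumor library's name but is stated outright by no source.

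Neutrophils are short-lived granulocytes made in bone marrow under granulocyte colony-stimulating factor; they carry preformed granules and are recruited through the chemokine receptor CXCR2. Tumor macrophages arise mostly from blood monocytes, are maintained through the receptor of colony-stimulating factor 1, make complement C1q, and digest engulfed material in lysosomes. Both cell types can release inflammatory cytokines, remodel matrix and restrain T cells in tumors, and each responds to the same microbial and tissue damage signals through Toll-like receptors.

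The members were chosen by their S100 and C1q values, which are given as a description only. S100a8 and S100a9, the subunits of the antimicrobial protein calprotectin, made up a median of 3.22% of UMIs in neutrophils and 0.0688% in macrophages. The median C1q count was 0 UMIs in neutrophils and 47 UMIs in macrophages. The 3 neutrophils nearest the threshold had 1.01%, 1.02% and 1.03% S100 UMIs, and the 3 nearest cells under it had 0.897%, 0.957% and 0.970%. A single C1q UMI was present in 21 neutrophils and none in 95. Of the cells near the C1q limit, 4 macrophages had exactly 3 C1q UMIs and 11 cells with 2 C1q UMIs and at least 1% S100 UMIs were in neither class.

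**Figure D1:**
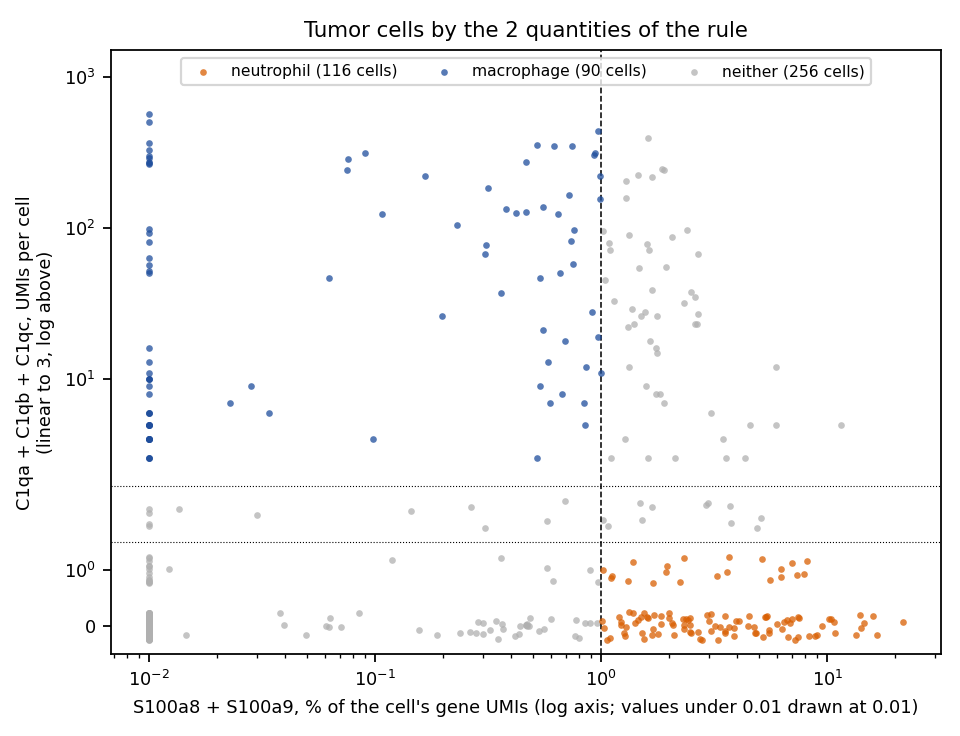
Each point is 1 of the 462 tumor cells, placed by the share of its gene UMIs from S100a8 and S100a9 (horizontal, log axis) and by its C1q UMIs (vertical, linear to 3 and log above); the dashed and dotted lines are the limits of the definition. The 116 neutrophils fill the lower right and the 90 macrophages the upper left, and 64 cells that met neither definition lie at the upper right, with at least 1% S100 UMIs and 2 or more C1q UMIs.

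The 2 markers outside the definition ordered the classes as their names say, but neither class was free of the other's genes. Csf3r, the receptor of granulocyte colony-stimulating factor, had 1016 CPM (counts per 1000000 UMIs) over all neutrophils and 314 CPM over all macrophages, and was seen in 95.7% of neutrophils, 61.1% of macrophages and 44.9% of the cells of neither class. Apoe, the apolipoprotein that macrophages secrete, had 316 CPM in neutrophils and 1312 CPM in macrophages, and was seen in 37.1%, 77.8% and 42.2% of those cells. Median depth was 5712, 21213.5 and 7692 UMIs in the 3 sets, so the shares of cells are not at equal depth.

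UMIs of monocyte and macrophage genes were also found in the neutrophil class, and how many came from free RNA or from a second cell in the droplet was not tested. Ly6c2, which marks inflammatory monocytes, had 354 CPM over all tumor neutrophils against 245 CPM over all tumor macrophages, but the order turned with the S100 share. It had 497 CPM in the 36 neutrophils with 1 to 2% S100 UMIs and 228 CPM in the 80 neutrophils with 2% or more, the second below the macrophages. Ccr2, the chemokine receptor of the same monocytes, had 291 CPM in the 36 and 264 CPM in the 80, against 406 CPM in macrophages. Macrophage genes went both ways within the neutrophils. Apoe had 329 CPM in the 36 and 305 CPM in the 80. Csf1r, the receptor of colony-stimulating factor 1, had 182 and 142 CPM. Mrc1, the mannose receptor, had 162 CPM in the 36 and 491 CPM in the 80, against 1629 CPM in macrophages. Pf4, a CXC chemokine of platelets and of some macrophages, had 57.0 CPM in the 36 and 378 CPM in the 80, against 3488 CPM in macrophages. By share of cells, both were seen less often in the 80. Mrc1 was seen in 33.3% of the 36 and 13.75% of the 80, and Pf4 in 33.3% and 20%. Median depth was 10340 UMIs per cell in the 36 and 4847 UMIs in the 80. Ly6g, the gene of a mouse neutrophil surface antigen, was captured in 8.62% of neutrophils and 3.33% of macrophages.

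Several hashtags, the mark of droplets with cells of several mice or of shared free antibody, were found on 62 of 116 neutrophils and 46 of 90 macrophages. Macrophages with several hashtags had a median of 36758.5 UMIs and 227 CPM of Cxcr2, against 13591 UMIs and 107 CPM in macrophages with 1 hashtag. Retnlg, a granulocyte gene, had 82.9 and 74.9 CPM in the same cells. Macrophage genes went both ways in neutrophils with several hashtags against those with 1. Apoe had 355 and 244 CPM, and Mrc1 had 300 and 411 CPM. The 64 cells with at least 1% S100 UMIs and 2 or more C1q UMIs had a median of 27261.5 UMIs, and 75% of them had several hashtags. A further 16 macrophages had no hashtag, a median of 371 UMIs and no UMI of Csf3r, Cxcr2, Ccr2 or Fn1. At so low a depth the absence of a gene says little. Together these 16 cells held 125 UMIs of Lyz2, a lysozyme gene, and 51 UMIs of Pf4. Only cells with 1 clear hashtag entered the sums below, no doublet caller was run, and doublets within a mouse remain in the sums. No neutrophil or macrophage barcode was shared with another tissue's library.

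Counts were summed per hashtag and class where a hashtag had at least 5 cells. This gave 3 neutrophil sums, of hashtags 2, 3 and 6, with 7, 17 and 15 cells and 83856, 163718 and 97558 UMIs. It gave 4 macrophage sums, of hashtags 2, 3, 4 and 7, with 6, 7, 6 and 5 cells and 88741, 178297, 66622 and 117138 UMIs. All values per sum below are in these orders of hashtags. Over the tested genes, levels correlated across genes at 0.731 to 0.851 among neutrophil sums and 0.696 to 0.771 among macrophage sums. The macrophage sum of hashtag 3 stood nearest to neutrophils, at 0.768 and 0.749 with the neutrophil sums of hashtags 2 and 3, and the macrophage sum of hashtag 7 was farthest from the neutrophil sum of hashtag 6, at 0.321; genes are not independent and all sums share 1 library.

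The neutrophil class had fewer transcripts and fewer kinds of them per cell, but the definition itself selected on depth. Its C1q limits are UMI counts, which deep cells pass more easily. It left out of the neutrophils the 64 cells with at least 1% S100 UMIs and 2 or more C1q UMIs, whose median was 27261.5 UMIs. The part of this selection in the gap was not tested. The median was 1740 genes per neutrophil and 4691 genes per macrophage. After each cell was thinned to 1000 UMIs, which left out 2 neutrophils and 16 macrophages, the medians were 552 and 695 genes. Thinning came after the classes were set and does not undo that selection. Mitochondrial transcripts made up a median of 0.891% of UMIs in neutrophils and 1.44% in macrophages.

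Of 2753 genes with at least 50 UMIs over the sums, 202 were higher in neutrophils (7.34% of the genes tested) and 159 were lower (5.78%), at an adjusted p under 0.05 in edgeR's quasi-likelihood test. The median log2 fold change of all tested genes was -0.16, and the sums of both classes did not overlap for 871 genes (31.6%). Positive values are higher in neutrophils throughout. Counts of called list members below are to be read beside the 7.34% higher and 5.78% lower over all genes. The share of calls that were higher was 56.0% here, 61.9% with TMM factors and 66.2% in DESeq2, which called 263 higher (9.55%) and 134 lower (4.87%). Because the classes were cut on transcripts of these same cells, genes that accompany S100a8, S100a9 or C1q in a cell differ by construction, and p-values set each difference against the spread between hashtags of 1 library.

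The number of calls rested on few sums. With the hashtag as a block, which uses only hashtags 2 and 3, 89 genes were higher (4.69%) and 32 lower (1.69%) of 1898 tested. Without the neutrophil sum of hashtag 3 (2309 genes tested), and likewise without that of hashtag 6 (2515 tested), 4 were higher and 1 was lower. Without the neutrophil sum of hashtag 2, 239 were higher and 271 lower. Leaving out the macrophage sum of hashtag 2, 4 or 7 left 83, 91 or 105 higher and 46, 42 or 56 lower. Every called gene kept its direction in each of the settings in which it was tested.

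Neutrophil genes were the clearest difference on the higher side. Retnlg, a resistin-like secreted protein of granulocytes, had 608, 831 and 1087 CPM in neutrophils, against 0, 22.4, 0 and 8.54 CPM in macrophages. The groups lay far apart, and it had the lowest adjusted p of all genes (log2 fold change 6.19, SE 0.60, adjusted p = 0.00137). Cxcr2, the receptor for the neutrophil-attracting CXC chemokines, had 429, 910 and 1056 CPM in neutrophils, against 33.8, 174, 60.0 and 25.6 CPM in macrophages. No macrophage sum reached the lowest neutrophil sum (log2 fold change 3.31, SE 0.59, adjusted p = 0.0212). Csf3r had 656, 965 and 1302 CPM in neutrophils, against 113, 264, 240 and 76.8 CPM in macrophages. The groups again did not overlap (log2 fold change 2.48, SE 0.47, adjusted p = 0.0212). Over all cells, cells with several hashtags included, Retnlg had 695 CPM in neutrophils and 80.9 CPM in macrophages, and Cxcr2 had 726 and 200 CPM. Over the 28 macrophages with 1 hashtag, those outside the sums included, Retnlg had 74.9 CPM, from 39 UMIs in 5 cells. The low macrophage levels of Retnlg above thus hold for the summed cells only.

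Of 22 tested genes of neutrophil identity, 15 were higher and none lower, with a median log2 fold change of 2.43 against -0.16 over all genes; the list was drawn up with results of these data known. Sorl1, a sorting receptor, had 525, 629 and 769 CPM in neutrophils, against 56.3, 202, 150 and 76.8 CPM in macrophages (log2 fold change 2.36, adjusted p = 0.0212). G0s2, an inhibitor of triglyceride breakdown, had 1753, 4074 and 5402 CPM in neutrophils, against 11.3, 477, 660 and 196 CPM in macrophages (log2 fold change 3.48, adjusted p = 0.0268). Fpr1, the receptor for bacterial formyl peptides, had 83.5, 171 and 287 CPM in neutrophils and was captured in only 1 macrophage sum, that of hashtag 3, at 28.0 CPM (log2 fold change 4.00, adjusted p = 0.0218). These 3 genes also had no overlap between the groups.

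Further steep rises were seen in Slc2a3, Wfdc21, Rdh12, Lcn2 and Lrg1, of which Lcn2 is on the neutrophil identity list. Slc2a3, a glucose transporter, had 131, 110 and 338 CPM in neutrophils and 11.3 CPM in the macrophage sum of hashtag 2, from 1 UMI, with none in the others (log2 fold change 5.84, adjusted p = 0.0128). Wfdc21, a small secreted protein, had 95.4, 183 and 390 CPM in neutrophils and was captured in macrophages at hashtag 3 only, at 28.0 CPM (log2 fold change 4.30, adjusted p = 0.0214). Rdh12, a retinol dehydrogenase, had 346, 452 and 687 CPM in neutrophils, against 67.6, 33.7, 30.0 and 17.1 CPM in macrophages (log2 fold change 3.74, adjusted p = 0.00529). Lcn2, the siderophore-binding lipocalin of granules, and Lrg1, a secreted leucine-rich glycoprotein, rose by 3.40 and 3.35 on the log2 scale (adjusted p = 0.0296 and 0.0230).

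Of these 11 neutrophil genes, 8 could be tested without the neutrophil sum of hashtag 3 and 6 of them lost the call (adjusted p 0.010 to 0.0858); 7 could be tested without that of hashtag 6 and 5 of them lost it (0.00927 to 0.0936). Leaving out the macrophage sum of hashtag 3 ended 1 of the 11 calls (up to 0.0552), and leaving out that of hashtag 7 ended 2 (up to 0.0553).

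Macrophage genes marked the other side. Aif1, which encodes the actin-binding protein IBA1 of macrophages, had 0, 24.4 and 0 CPM in neutrophils, against 372, 314, 630 and 435 CPM in macrophages. Every macrophage sum exceeded every neutrophil sum by far (log2 fold change -5.17, SE 0.69, adjusted p = 0.00738). Ms4a7, a membrane protein of macrophages, had 0, 12.2 and 0 CPM in neutrophils, against 462, 72.9, 570 and 248 CPM in macrophages. Its lowest macrophage sum, of hashtag 3, was still above all neutrophils (log2 fold change -5.62, SE 0.99, adjusted p = 0.0212). Trem2, a lipid-sensing receptor of tissue macrophages, had 23.9, 36.6 and 10.3 CPM in neutrophils, against 214, 196, 135 and 230 CPM in macrophages. These groups did not overlap (log2 fold change -2.91, SE 0.50, adjusted p = 0.0203). Maf, a macrophage transcription factor, had 23.9, 85.5 and 20.5 CPM in neutrophils, against 248, 202, 345 and 316 CPM in macrophages (log2 fold change -2.50, adjusted p = 0.0218); with the hashtag as a block its adjusted p was 0.0790, and over all alternatives 0.000292 to 0.0867. Ranges over all alternatives, here and below, include stricter thresholds of the definition, which left 2 neutrophil sums and 1 macrophage sum, the lone sum being assumed to vary like the others.

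Other steep falls were seen in Cd72, a coreceptor better known from B cells, and Ccnd1, the cyclin that drives entry into the cell cycle. Cd72 had 0, 6.11 and 0 CPM in neutrophils, against 158, 72.9, 570 and 154 CPM in macrophages (log2 fold change -5.87, adjusted p = 0.0212). Ccnd1 had 0, 18.3 and 0 CPM in neutrophils, against 113, 50.5, 105 and 248 CPM in macrophages (log2 fold change -3.78, adjusted p = 0.0268). Areg, a ligand of the epidermal growth factor receptor, had no UMI in the neutrophil sums, against 327, 89.7, 345 and 0 CPM in macrophages. Macrophages of hashtag 7 also had none, so the groups meet at 0. Set against 3 UMIs over the neutrophil sums, Areg was at least 17.4-fold lower in neutrophils (adjusted p = 0.0422).

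Of 16 tested genes of macrophage identity, none was higher and 6 were lower, with a median log2 fold change of -1.85 and none above 0; this list too was drawn up with results known. Summed over the 22 listed genes, however, the classes overlapped, at 10637, 7837 and 2122 CPM in neutrophils, against 7944, 18637, 7175 and 34583 CPM in macrophages. Neutrophils of hashtag 2 thus lay above the macrophages of hashtags 2 and 4, and neutrophils of hashtag 3 above those of hashtag 4. Lyz2, a lysozyme that neutrophils make as well, was the most abundant of these genes in neutrophils of hashtag 2, with 8646, 2846 and 1056 CPM in neutrophils, against 3144, 7039, 2717 and 11124 CPM in macrophages (log2 fold change -0.52, adjusted p = 0.613). Several well-known macrophage genes did not pass the test. Apoe had 227, 397 and 71.8 CPM in neutrophils, against 372, 864, 525 and 1964 CPM in macrophages (log2 fold change -1.98, adjusted p = 0.0734). Csf1r, the receptor of colony-stimulating factor 1, had 83.5, 244 and 71.8 CPM in neutrophils, against 214, 393, 180 and 316 CPM in macrophages (adjusted p = 0.164). For both, the neutrophil sum of hashtag 3 reached into the macrophage range.

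Mrc1 and Pf4 varied widely within both classes and overlapped between them. Mrc1 had 274, 660 and 113 CPM in neutrophils, against 349, 1200, 135 and 1161 CPM in macrophages (log2 fold change -1.02, adjusted p = 0.339). Pf4 had 11.9, 776 and 51.3 CPM in neutrophils, against 642, 841, 135 and 7845 CPM in macrophages (log2 fold change -3.02, adjusted p = 0.150). In both genes the neutrophil sum of hashtag 3 was the highest of the neutrophils and lay above the macrophage sum of hashtag 4.

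The 7 macrophage calls (Aif1, Ms4a7, Trem2, Maf, Cd72, Areg and Ccnd1) depended on the same sums as above: 6 were lost without the neutrophil sum of hashtag 3 (adjusted p 0.0207 to 0.120) and 6 without that of hashtag 6 (0.0412 to 0.126). Leaving out the neutrophil sum of hashtag 2 ended 1 (up to 0.0553), and leaving out the macrophage sum of hashtag 3 ended 1 of 6 tested (up to 0.0506).

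**Figure D2:**
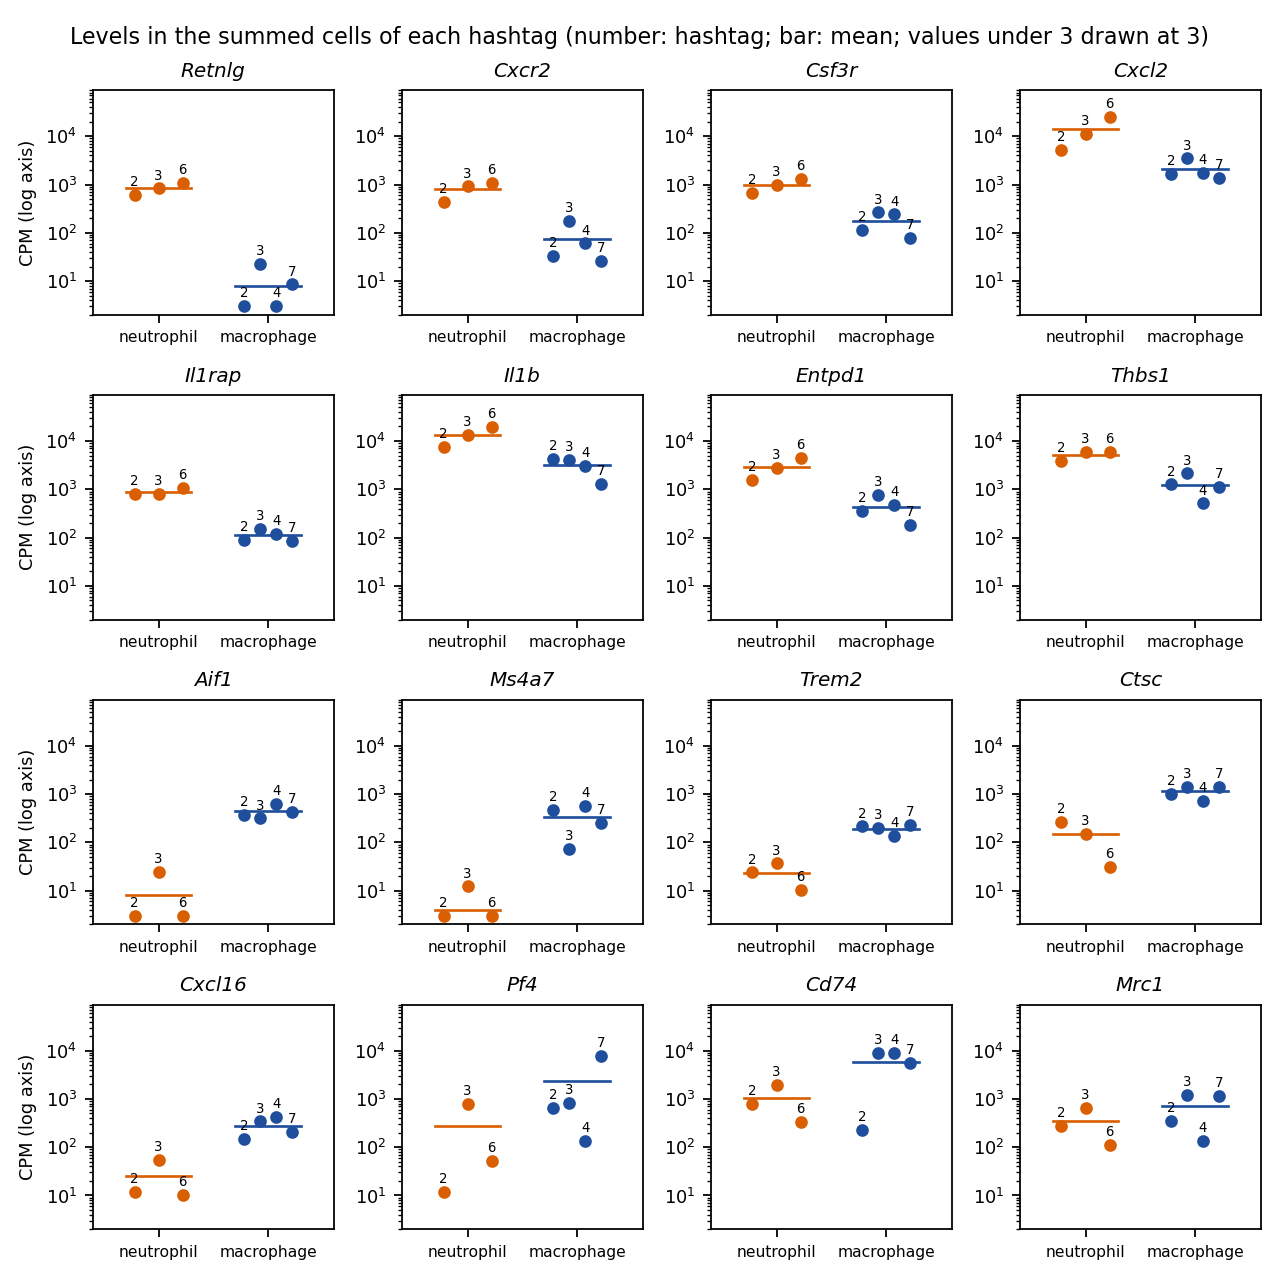
Levels of 16 genes in the 3 neutrophil sums (left, orange) and the 4 macrophage sums (right, blue), in CPM on a log axis; each point is a hashtag, with its number, the bar is the mean, and values under 3 are drawn at 3. Retnlg, Cxcr2, Csf3r, Cxcl2, Il1rap, Il1b, Entpd1 and Thbs1 were higher in every neutrophil sum, Aif1, Ms4a7, Trem2, Ctsc and Cxcl16 were lower in every one, and Pf4, Cd74 and Mrc1 overlapped.

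CXC chemokines split between the classes. Cxcl2, which attracts neutrophils through CXCR2, had 5295, 11294 and 25492 CPM in neutrophils, against 1634, 3472, 1756 and 1349 CPM in macrophages. It was among the most abundant transcripts of the neutrophils, and the groups did not overlap (log2 fold change 2.77, SE 0.54, adjusted p = 0.0218). Cxcl3, a close relative that acts on the same receptor, had 560, 2688 and 4264 CPM in neutrophils, against 113, 763, 315 and 51.2 CPM in macrophages. The neutrophil sum of hashtag 2 lay below the macrophage sum of hashtag 3 (log2 fold change 2.98, SE 0.84, adjusted p = 0.0424). Cxcl16, the membrane-bound ligand of CXCR6, went the other way, with 11.9, 55.0 and 10.3 CPM in neutrophils, against 146, 342, 420 and 205 CPM in macrophages (log2 fold change -3.19, SE 0.62, adjusted p = 0.0218). Of 9 tested CXC chemokines and receptors, 3 were higher (Cxcl2, Cxcl3 and Cxcr2) and 1 was lower, with a median log2 fold change of 1.18.

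The promoters of Cxcl2 and Cxcl3 are shown because these relatives, both on chromosome 5, were both higher in neutrophils and both hold the motif named here; the promoters of Il1b, Nlrp3, Il1rap, Cxcr2, Csf3r and Retnlg, also higher, and of Aif1, Ms4a7 and Trem2, lower, were searched and do not hold it. The 250 bases before the start of each gene, from RefSeq on GRCm38.p6, are written 5′ to 3′ on the plus strand, with capitals for matches to an NF-kB motif (GGG, any 2 bases, then TTTCC), which was searched on both strands.
Cxcl2 (chr5:90903649-90903898): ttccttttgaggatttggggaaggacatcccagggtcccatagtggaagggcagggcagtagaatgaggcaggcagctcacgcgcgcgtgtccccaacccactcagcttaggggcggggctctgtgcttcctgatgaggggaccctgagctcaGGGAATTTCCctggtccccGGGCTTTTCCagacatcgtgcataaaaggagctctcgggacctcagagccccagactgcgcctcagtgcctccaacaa
Cxcl3 (chr5:90785851-90786100): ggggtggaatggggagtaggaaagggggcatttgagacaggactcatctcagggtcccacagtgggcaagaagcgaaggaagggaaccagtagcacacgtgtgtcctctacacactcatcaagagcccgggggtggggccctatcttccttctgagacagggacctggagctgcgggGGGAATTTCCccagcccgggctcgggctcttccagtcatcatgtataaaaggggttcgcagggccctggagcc
Cxcl2 held 2 matches that did not overlap each other and Cxcl3 held 1, and both contain the letters GGGAATTTCC. The motif was found in 1.40% of 27025 promoters of the table, in 2.05% of 2195 promoters of tested genes, in 4 of 163 promoters of genes called higher in neutrophils and in 0 of 130 promoters of genes called lower. A C/EBP motif (TTGC, any 2 bases, then AA) was searched as well; it was found in 9.55% of all promoters, in 7.84% of those of tested genes, in 17 of 163 of the higher and 5 of 130 of the lower genes, and among the promoters named here in that of Retnlg. A match is a run of letters and shows no binding.

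Among CC chemokines and their receptors, Ccl6 and Ccr1 were higher. Ccl6, a chemokine of myeloid cells, had 1526, 1881 and 3055 CPM in neutrophils, against 327, 1195, 240 and 521 CPM in macrophages (log2 fold change 1.89, adjusted p = 0.0444). Ccr1, a receptor for several CC chemokines, had 680, 867 and 1261 CPM in neutrophils, against 192, 466, 255 and 120 CPM in macrophages (log2 fold change 1.83, adjusted p = 0.0311). Neither overlapped, but with the hashtag as a block the adjusted p was 0.0979 for Ccl6 and 0.0804 for Ccr1, and over all alternatives 0.00115 to 0.189 and 0.00212 to 0.112. Ccl4, which attracts monocytes and lymphocytes, had 298, 2797 and 3813 CPM in neutrophils, against 304, 578, 1291 and 17.1 CPM in macrophages, with 3 neutrophil sums that ran from the range of macrophages to well above it (adjusted p = 0.154). Its neighbour Ccl3 was likewise not called (log2 fold change 1.99, adjusted p = 0.146). Of 13 tested CC chemokines and receptors 2 were higher and none lower, with a median of -0.10.

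All 5 chemokine and receptor calls (Cxcl2, Cxcl3, Cxcl16, Ccl6 and Ccr1) were lost without the neutrophil sum of hashtag 3 (adjusted p 0.0530 to 0.107) and without that of hashtag 6 (0.0689 to 0.154). Each of the macrophage sums of hashtags 2, 4 and 7 ended 3 of them when left out (up to 0.0977, 0.0877 and 0.0856).

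The interleukin-1 family was higher in neutrophils at several steps. Il1b, the cytokine itself, had 7632, 13480 and 19486 CPM in neutrophils, against 4192, 4134, 3047 and 1306 CPM in macrophages. The groups did not overlap, although all macrophage sums also carried it (log2 fold change 2.09, SE 0.47, adjusted p = 0.0239). With the hashtag as a block the adjusted p of Il1b was 0.0677, and over all alternatives 0.000412 to 0.0869. Il1a, its cell-associated relative, had 35.8, 244 and 728 CPM in neutrophils, against 0, 50.5, 75.1 and 8.54 CPM in macrophages, with overlap at the neutrophil sum of hashtag 2 (log2 fold change 3.32, adjusted p = 0.0424). Il1f9, the mouse gene of interleukin-36 gamma, had 274, 214 and 287 CPM in neutrophils, against 0, 16.8, 30.0 and 8.54 CPM in macrophages (log2 fold change 4.17, adjusted p = 0.00738).

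The sensor and the receptors of the family were higher too. Nlrp3, the inflammasome sensor that leads to release of interleukin-1 beta, had 1562, 2877 and 3085 CPM in neutrophils, against 293, 959, 555 and 273 CPM in macrophages (log2 fold change 2.26, adjusted p = 0.0233). Il1rap, the shared signalling chain of interleukin-1 receptors, had 787, 806 and 1076 CPM in neutrophils, against 90.2, 151, 120 and 85.4 CPM in macrophages. Both classes were tight for Il1rap and lay far apart (log2 fold change 2.96, SE 0.36, adjusted p = 0.00529). Il18rap, the signalling chain of the interleukin-18 receptor, had 227, 299 and 328 CPM in neutrophils, against 33.8, 89.7, 90.1 and 17.1 CPM in macrophages (log2 fold change 2.28, adjusted p = 0.0233). Of 8 tested members of the interleukin-1 list 6 were higher and none lower, with a median log2 fold change of 2.27. The 6 were Il18rap, Il1a, Il1b, Il1r2, Il1rap and Nlrp3, and Il1f9 was not among them.

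Outside that family, 2 cytokines rose. Il15, which sustains natural killer and memory T cells, had 298, 226 and 287 CPM in neutrophils, against 33.8, 50.5, 45.0 and 8.54 CPM in macrophages (log2 fold change 2.92, adjusted p = 0.0203). Osm, oncostatin M of the interleukin-6 family, had 346, 599 and 1097 CPM in neutrophils, against 90.2, 308, 45.0 and 85.4 CPM in macrophages (log2 fold change 2.25, adjusted p = 0.0344). Neither gene overlapped between the groups; with the block, Osm had an adjusted p of 0.0836 (over all alternatives 6.48e-05 to 0.143). Of 8 tested cytokines and growth factors, 2 were higher (Il15 and Osm) and 2 lower (Areg and Grn), with a median of 0.54.

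Among 17 tested cytokine receptor chains 3 were higher and none lower, with a median of 0.35. Beside Csf3r these were Il13ra1 and Csf2rb. Il13ra1, a chain of the interleukin-4 and interleukin-13 receptors, had 167, 238 and 256 CPM in neutrophils, against 45.1, 61.7, 30.0 and 59.8 CPM in macrophages (log2 fold change 2.09, adjusted p = 0.0214). Csf2rb, the shared chain of the receptors for granulocyte-macrophage colony-stimulating factor, interleukin-3 and interleukin-5, had 704, 1081 and 748 CPM in neutrophils, against 158, 527, 240 and 273 CPM in macrophages (log2 fold change 1.47, adjusted p = 0.0467; 0.0647 with the block and 0.0114 to 0.154 over all alternatives).

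Levels are given here for 10 cytokine and receptor calls: Il1b, Il1a, Il1f9, Nlrp3, Il1rap, Il18rap, Il15, Osm, Il13ra1 and Csf2rb. Of these, 8 were lost without the neutrophil sum of hashtag 3 (adjusted p 0.0207 to 0.154) and 8 without that of hashtag 6 (0.0221 to 0.189). Leaving out the macrophage sum of hashtag 2, 3, 4 or 7 ended 4, 1, 5 or 3 of them (up to 0.101, 0.0580, 0.10 and 0.0896).

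The lysosomal genes that passed the test were lower in neutrophils. Of 20 tested genes of cathepsins and lysosome, none was higher and 8 were lower (Cd68, Ctsa, Ctsc, Ctsh, Ctsz, Grn, Hexa and Lgmn), with a median log2 fold change of -1.54. Ctsc, the protease that activates serine proteases of granules, had 262, 153 and 30.8 CPM in neutrophils, against 1003, 1419, 735 and 1400 CPM in macrophages. No neutrophil sum came near the macrophages (log2 fold change -2.95, SE 0.60, adjusted p = 0.0218). Grn, which encodes progranulin, a lysosomal and secreted protein, had 71.6, 110 and 10.3 CPM in neutrophils, against 383, 454, 600 and 384 CPM in macrophages (log2 fold change -2.73, adjusted p = 0.0218). Hexa, a chain of beta-hexosaminidase, had 35.8, 85.5 and 30.8 CPM in neutrophils, against 316, 219, 240 and 222 CPM in macrophages (log2 fold change -2.18, adjusted p = 0.0221). Ctsh, an aminopeptidase, had 155, 183 and 61.5 CPM in neutrophils, against 394, 409, 585 and 435 CPM in macrophages (log2 fold change -1.74, adjusted p = 0.0274). The groups did not overlap for any of these 4 genes. Ctsl, another lysosomal cathepsin, overlapped, with 191, 330 and 41.0 CPM in neutrophils, against 203, 1077, 255 and 1742 CPM in macrophages (adjusted p = 0.10).

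Genes of MHC class II, which presents peptides from lysosomes to helper T cells, split the macrophage sums. Cd74, the invariant chain, had 787, 1961 and 338 CPM in neutrophils, against 225, 8884, 8856 and 5532 CPM in macrophages (log2 fold change -2.50, adjusted p = 0.0983). H2-Aa, a class II chain, had 143, 647 and 41.0 CPM in neutrophils, against 22.5, 3864, 4443 and 1579 CPM in macrophages (log2 fold change -3.11, adjusted p = 0.105). In both genes the macrophage sum of hashtag 2 was below all neutrophil sums and the other 3 macrophage sums were above all of them. H2-DMb1, a chain of the peptide loader, had 35.8, 67.2 and 10.3 CPM in neutrophils, against 45.1, 292, 405 and 256 CPM in macrophages, and was the only 1 of 6 tested class II genes to pass (log2 fold change -2.58, adjusted p = 0.0422). The median of the 6 was -2.58.

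Of 14 tested genes of MHC class I and peptide loading, 2 were lower and none higher, with a median of -0.31. These were Calr, calreticulin, and Pdia3, both chaperones of the endoplasmic reticulum. Calr had 537, 312 and 215 CPM in neutrophils, against 823, 813, 1006 and 948 CPM in macrophages (log2 fold change -1.34, adjusted p = 0.0476). Pdia3 had 227, 165 and 154 CPM in neutrophils, against 507, 426, 435 and 470 CPM in macrophages (log2 fold change -1.34, adjusted p = 0.0296). Neither overlapped.

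With the hashtag as a block, 5 of these 7 lysosomal and antigen presentation calls were lost: Hexa (adjusted p = 0.0668; 0.00232 to 0.0867 over all alternatives), Ctsh (0.0837; 0.00893 to 0.0869), H2-DMb1 (0.0887; 0.000299 to 0.145), Calr (0.118; 0.0147 to 0.160) and Pdia3 (0.0682; 0.0150 to 0.107). All 7 (with Ctsc and Grn) were lost without the neutrophil sum of hashtag 3 (0.0579 to 0.160) and without that of hashtag 6 (0.0689 to 0.145). Leaving out the neutrophil sum of hashtag 2 ended 1 (up to 0.0669), and leaving out the macrophage sum of hashtag 2, 3, 4 or 7 ended 2, 2, 4 or 2 (up to 0.0821, 0.0616, 0.0884 and 0.0761).

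Genes with known parts in restraining T cells were higher in neutrophils where they passed the test. Of 15 tested genes of the suppressive list 5 were higher and none lower, with a median of 0.75. Entpd1, the ectoenzyme CD39 that breaks down extracellular ATP, had 1586, 2810 and 4490 CPM in neutrophils, against 349, 752, 480 and 179 CPM in macrophages. The groups did not overlap (log2 fold change 2.74, SE 0.53, adjusted p = 0.0214). Arg2, the mitochondrial arginase, had 560, 1051 and 1128 CPM in neutrophils, against 158, 292, 105 and 120 CPM in macrophages (log2 fold change 2.39, adjusted p = 0.0212). Arg1, the cytosolic arginase, had 239, 702 and 20.5 CPM in neutrophils, against 361, 3006, 30.0 and 444 CPM in macrophages, with full overlap (adjusted p = 0.355).

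Cell-surface ligands of lymphocyte receptors were part of that list. Cd80, a ligand of CD28 and CTLA-4, had 572, 825 and 1046 CPM in neutrophils, against 180, 286, 195 and 162 CPM in macrophages (log2 fold change 1.96, adjusted p = 0.0212). Lilrb4a, an inhibitory receptor, had 978, 1246 and 1599 CPM in neutrophils, against 439, 617, 525 and 452 CPM in macrophages (log2 fold change 1.32, adjusted p = 0.0348; 0.0872 with the block and 0.00659 to 0.103 over all alternatives). Cd274, the ligand PD-L1, had 775, 1222 and 882 CPM in neutrophils, against 237, 393, 420 and 42.7 CPM in macrophages; the sums did not overlap, but it did not pass (log2 fold change 1.82, adjusted p = 0.0562), though it did with the block (0.0353; 0.00248 to 0.167 over all alternatives). Ptgs2, the cyclooxygenase of induced prostaglandin synthesis, had 429, 1203 and 1937 CPM in neutrophils, against 485, 314, 150 and 51.2 CPM in macrophages (log2 fold change 2.24, adjusted p = 0.0486). Within hashtag 2, Ptgs2 was lower in neutrophils, and with the block its adjusted p was 0.257 (8.76e-05 to 0.257 over all alternatives).

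Of 18 tested genes of matrix and vessels 2 were higher and 1 lower, shares near the 7.34% and 5.78% over all genes. Thbs1, the matrix protein thrombospondin that inhibits vessel growth, had 3840, 5937 and 5822 CPM in neutrophils, against 1262, 2131, 510 and 1110 CPM in macrophages (log2 fold change 2.04, adjusted p = 0.0240). Plaur, the urokinase receptor, had 1789, 2162 and 3577 CPM in neutrophils, against 552, 903, 660 and 367 CPM in macrophages (log2 fold change 2.01, adjusted p = 0.0227). Mmp14, a membrane metalloproteinase, had 35.8, 97.7 and 20.5 CPM in neutrophils, against 248, 258, 465 and 350 CPM in macrophages (log2 fold change -2.53, adjusted p = 0.0218; 0.0668 with the block and 0.000129 to 0.0747 over all alternatives). None of the 3 overlapped. The median of the list was -0.04, and 0.01 with TMM factors. Spp1, osteopontin, had 59.6, 629 and 82.0 CPM in neutrophils, against 146, 2193, 75.1 and 7086 CPM in macrophages; it did not pass (adjusted p = 0.132), but did with the block (0.0495; 4.89e-07 to 0.702 over all alternatives).

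Without the neutrophil sum of hashtag 3, all 8 calls of these 3 groups (Entpd1, Arg2, Cd80, Lilrb4a, Ptgs2, Thbs1, Plaur and Mmp14) were lost (adjusted p 0.0530 to 0.120), and so they were without that of hashtag 6 (0.0689 to 0.179). The macrophage sums of hashtags 2, 3, 4 and 7 ended 4, 1, 2 and 3 calls when left out (up to 0.0881, 0.0686, 0.110 and 0.0736).

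Transporters of glucose and lactate were higher in neutrophils, while the median of the glycolytic list lay near that of all genes. Of 16 tested genes 3 were higher and none lower, with a median of -0.12. Beside Slc2a3 these were Slc16a3, the lactate exporter, and Slc2a1, a glucose transporter. Slc16a3 had 453, 873 and 841 CPM in neutrophils, against 180, 286, 180 and 145 CPM in macrophages (log2 fold change 1.85, adjusted p = 0.0218). Slc2a1 had 179, 318 and 410 CPM in neutrophils, against 67.6, 168, 30.0 and 42.7 CPM in macrophages (log2 fold change 1.85, adjusted p = 0.0463). Neither overlapped. Slc2a1 was also the only 1 of 12 tested hypoxia targets to pass, a share near the 7.34% higher over all genes. The median of the 12 was 0.62.

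Other hypoxia targets did not separate the classes. Hilpda, an inhibitor of triglyceride breakdown, had 71.6, 220 and 205 CPM in neutrophils, against 406, 645, 15.0 and 128 CPM in macrophages (log2 fold change -0.87, adjusted p = 0.446), and passed only with the block of hashtags 2 and 3 (0.0377; up to 0.918 over all alternatives). Vegfa, the vascular growth factor, had 107, 189 and 164 CPM in neutrophils, against 45.1, 219, 30.0 and 93.9 CPM in macrophages (adjusted p = 0.509). Dgat2, which makes triglycerides, rose by 2.44 on the log2 scale (adjusted p = 0.0371) from 45 UMIs in neutrophil sums and 10 in macrophage sums, and was with G0s2 1 of 2 higher genes of 14 tested for lipid handling; Trem2 was lower. Blvrb, which reduces biliverdin, fell by 2.93 (adjusted p = 0.0275). Fth1, the heavy chain of the iron store ferritin, had 12319, 20150 and 37332 CPM in neutrophils, against 7651, 14756, 15265 and 7700 CPM in macrophages and was not called (adjusted p = 0.123).

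Genes of protein synthesis and respiration were mostly lower in neutrophils by value, but few passed. Of 50 tested cytosolic ribosomal protein genes, 2 were lower and none higher, a share below the 5.78% lower over all genes. Their median log2 fold change was -1.13 and none was above 0. Rpl15, of the large subunit, had 751, 599 and 277 CPM in neutrophils, against 1476, 1116, 1531 and 2211 CPM in macrophages (log2 fold change -1.54, adjusted p = 0.0460). Rps2, of the small subunit, had 1288, 678 and 379 CPM in neutrophils, against 2017, 1688, 2567 and 3116 CPM in macrophages (log2 fold change -1.59, adjusted p = 0.0490). Neutrophils of hashtag 6 were lowest in both genes, and the groups did not overlap. The summed level of the 50 genes ran from 19845 to 73829 CPM in neutrophil sums and from 73916 to 115283 CPM in macrophage sums.

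Of 26 tested nuclear genes of the respiratory chain 4 were lower and none higher, with a median of -0.93. Cox5a, a subunit of cytochrome c oxidase, had 239, 202 and 164 CPM in neutrophils, against 507, 426, 630 and 683 CPM in macrophages (log2 fold change -1.47, adjusted p = 0.0274). Uqcrb of complex III, Ndufb8 of complex I and the electron carrier Cycs fell by 1.44, 1.66 and 1.66 on the log2 scale (adjusted p = 0.0337, 0.0447 and 0.0422), without overlap. None of 10 tested mitochondrially encoded genes was called; their median was -1.05.

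Of these 10 metabolic calls (Slc16a3, Slc2a1, Dgat2, Blvrb, Rpl15, Rps2, Cox5a, Uqcrb, Ndufb8 and Cycs), 8 could be tested with the hashtag as a block and 7 were lost. The blocked adjusted p was 0.151 for Slc2a1, 0.0910 for Cox5a, 0.129 for Uqcrb, 0.123 for Cycs, 0.0674 for Ndufb8, 0.115 for Rpl15 and 0.117 for Rps2; over all alternatives it stayed between 0.00156 and 0.166 for these 7. All 9 that could be tested were lost without the neutrophil sum of hashtag 3 (0.0769 to 0.161) and without that of hashtag 6 (0.0736 to 0.166). Leaving out the macrophage sum of hashtag 2, 3, 4 or 7 ended 8, 3, 9 or 7 of the 10 (up to 0.0938, 0.0655, 0.0896 and 0.0934).

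**Figure D3:**
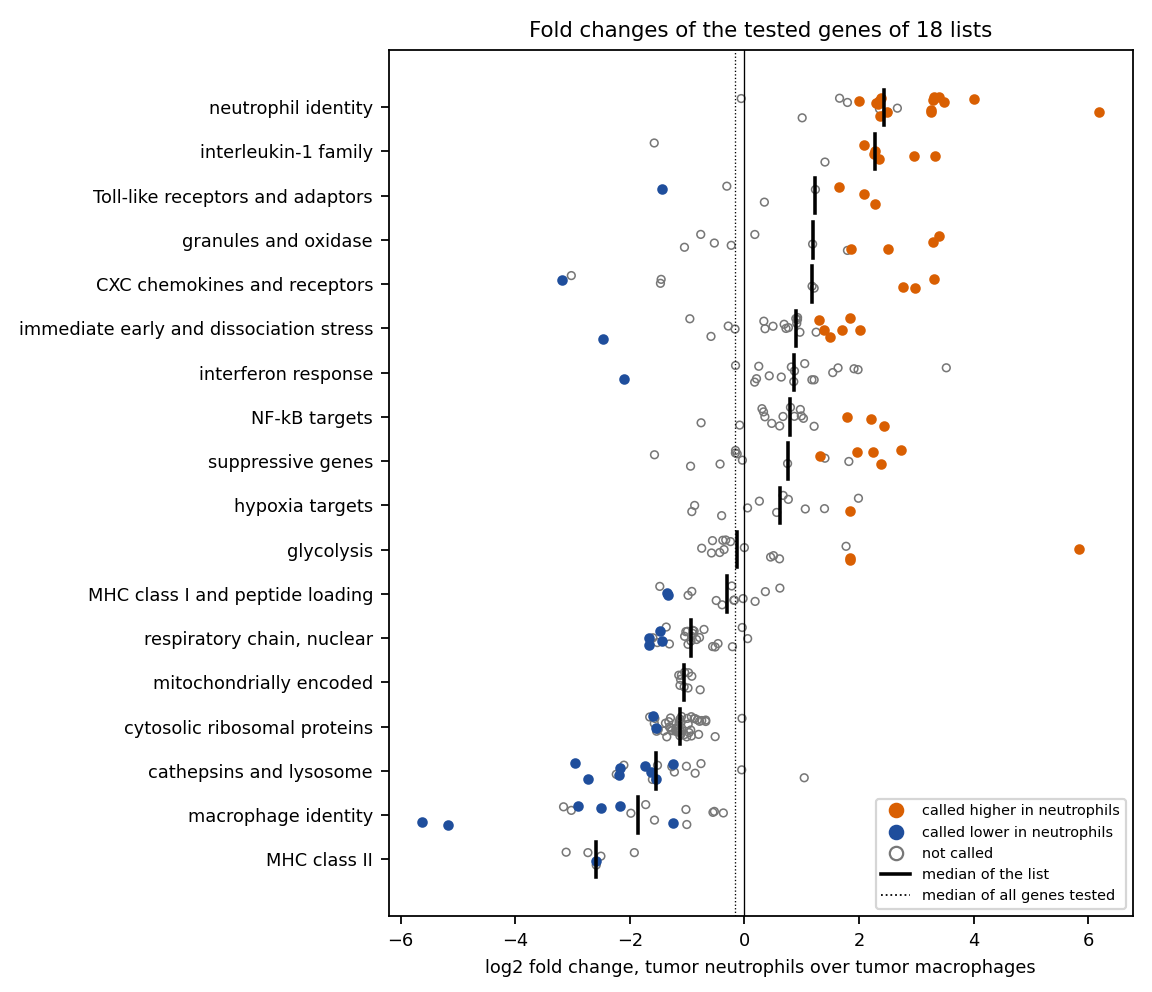
Log2 fold changes of neutrophils over macrophages for the tested genes of 18 lists; each circle is a gene, filled orange where called higher and blue where called lower in neutrophils and open where not called, with the median of each list as a black bar. Neutrophil identity (median 2.43) and the interleukin-1 family (2.27) lie farthest to the right of the median of all genes (-0.16, dotted), and macrophage identity (-1.85) and MHC class II (-2.58) farthest to the left.

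Receptors that sense microbes and damage went both ways. Clec4d and Clec4e, C-type lectins that bind mycobacterial glycolipids, were higher in neutrophils. Clec4d had 1336, 2132 and 2655 CPM in neutrophils, against 180, 774, 375 and 265 CPM in macrophages (log2 fold change 2.34, adjusted p = 0.0233). Clec4e had 537, 898 and 1476 CPM in neutrophils, against 169, 308, 315 and 179 CPM in macrophages (log2 fold change 1.99, adjusted p = 0.0230). Clec4a3, of another branch of the same family, had 59.6, 30.5 and 0 CPM in neutrophils, against 372, 168, 510 and 102 CPM in macrophages (log2 fold change -3.21, adjusted p = 0.0301). All 3 separated the groups; the other 6 of the 9 tested C-type lectins were not called, and the median of the 9 was -1.02.

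Among Toll-like receptors and their adaptors, the receptor of lipopolysaccharide was higher in neutrophils. Tlr4 had 537, 507 and 810 CPM in neutrophils, against 56.3, 241, 225 and 51.2 CPM in macrophages (log2 fold change 2.09, adjusted p = 0.0311). Cd14, its coreceptor, had 2158, 2681 and 3034 CPM in neutrophils, against 890, 1694, 796 and 1050 CPM in macrophages, with no overlap, but did not pass (log2 fold change 1.24, adjusted p = 0.0522). The kinases Irak2 and Irak3, which carry and dampen the signal, rose by 1.65 and 2.29 on the log2 scale (adjusted p = 0.0352 and 0.0422). Unc93b1, which escorts the endosomal receptors, had 167, 104 and 71.8 CPM in neutrophils, against 361, 236, 435 and 222 CPM in macrophages (log2 fold change -1.44, adjusted p = 0.0474). Of 7 tested genes of this list 3 were higher and 1 lower, with a median of 1.24.

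Of 10 tested Fc receptor and signal chain genes 1 was higher and 1 lower, shares near the 7.34% and 5.78% over all genes, with a median of 0.22. Fcgr1, the high-affinity receptor for IgG, had 119, 110 and 10.3 CPM in neutrophils, against 338, 320, 390 and 427 CPM in macrophages (log2 fold change -2.17, adjusted p = 0.0299). Surface counts of its protein, CD64, did not follow the transcript. CD64 had a mean of 31.4, 35.5 and 35.5 counts per cell in neutrophils, against 19.3, 72.3, 13.8 and 18.2 counts in macrophages, and was not called. Syk, the kinase below Fc receptors and C-type lectins, had 668, 977 and 1251 CPM in neutrophils, against 316, 432, 330 and 282 CPM in macrophages (log2 fold change 1.5, adjusted p = 0.0274). Of 15 tested integrins and adhesion genes 3 were higher and 1 lower, with a median of 0.37. Itgal, the integrin chain CD11a, rose by 1.92 on the log2 scale (adjusted p = 0.0293). The tetraspanins went in opposite directions: Cd9 rose by 1.84 (adjusted p = 0.0379), while Cd81 fell by 2.67 (adjusted p = 0.0394).

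Of 11 tested genes of granules and the oxidase 4 were higher and none lower, with a median of 1.19. Chil3, a chitinase-like protein of neutrophils and some macrophages, had 2302, 800 and 349 CPM in neutrophils, against 146, 101, 15.0 and 188 CPM in macrophages (log2 fold change 3.29, adjusted p = 0.0227). Its level in the neutrophil sum of hashtag 2 was well above the other 2. Hp, haptoglobin, had 298, 489 and 441 CPM in neutrophils, against 45.1, 107, 30.0 and 85.4 CPM in macrophages (log2 fold change 2.50, adjusted p = 0.0203). Ncf1, a cytosolic subunit of the oxidase, rose by 1.85 (adjusted p = 0.0242), and Lcn2 was the fourth.

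With the block, 7 of the 13 tested among these 15 calls of sensing, adhesion and granule genes were lost: Tlr4 (adjusted p = 0.0699), Irak2 (0.0739), Unc93b1 (0.117), Syk (0.0811), Fcgr1 (0.0661), Cd9 (0.0679) and Ncf1 (0.0517); over all alternatives these 7 ran from 0.000331 to 0.183. The other 8 calls are Clec4d, Clec4e, Clec4a3, Irak3, Itgal, Cd81, Chil3 and Hp. All 14 that could be tested were lost without the neutrophil sum of hashtag 3 (0.0579 to 0.149) and without that of hashtag 6 (0.0689 to 0.157). Leaving out the neutrophil sum of hashtag 2 ended 1 (up to 0.0615), and leaving out the macrophage sum of hashtag 2, 4 or 7 ended 10 of 14, 11 of 15 or 8 of 14 (up to 0.0920, 0.0926 and 0.0733).

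Regulators and stress genes followed. Cebpb, a transcription factor of granulocytes under stress and of inflammatory macrophages, had 2433, 3543 and 4971 CPM in neutrophils, against 1071, 1492, 916 and 785 CPM in macrophages (log2 fold change 1.77, adjusted p = 0.0233). Klf4, a transcription factor of monocytes, had 35.8, 97.7 and 0 CPM in neutrophils, against 146, 409, 150 and 376 CPM in macrophages (log2 fold change -2.46, adjusted p = 0.0496). Neither overlapped. Of 18 tested transcription factors Cebpb was higher, and Klf4 and Maf were lower, with a median of 0.33. Over all genes, 7.34% were higher and 5.78% lower.

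NF-kB targets were higher where called: 3 of 17 tested, with none lower and a median of 0.80. Birc3, an inhibitor of cell death, had 417, 953 and 697 CPM in neutrophils, against 101, 219, 180 and 93.9 CPM in macrophages (log2 fold change 2.20, adjusted p = 0.0214). Nfkbiz, a nuclear cofactor of NF-kB, had 608, 1619 and 2030 CPM in neutrophils, against 316, 303, 360 and 76.8 CPM in macrophages (log2 fold change 2.44, adjusted p = 0.0240). Tnfaip2, induced by tumor necrosis factor, rose by 1.78 (adjusted p = 0.0497). Of 10 tested genes of the BCL2 family and apoptosis, only Bax, a promoter of cell death, was called, and it fell by 1.55 (adjusted p = 0.0474); the median was 0.61.

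Immediate early genes, which can be induced while tissue is digested, were part of the difference: of 23 tested, 6 were higher and 1 (Klf4) was lower, with a median of 0.90. Ier3 had 1443, 2449 and 3301 CPM in neutrophils, against 485, 982, 480 and 410 CPM in macrophages (log2 fold change 2.01, adjusted p = 0.0233). Junb, a subunit of the AP-1 factor, had 2647, 3860 and 4223 CPM in neutrophils, against 1533, 1526, 1126 and 1263 CPM in macrophages (log2 fold change 1.39, adjusted p = 0.0301). The phosphatase gene Dusp1 and the antiproliferative gene Btg2 rose by 1.49 and 1.85 (adjusted p = 0.0293 and 0.0342). Both cell types went through the same digestion, and the part of digestion in these levels was not tested.

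The unfolded protein response gave 1 higher and 2 lower of 9 tested, with a median of -1.09. Ppp1r15a, which restarts translation after stress, had 274, 654 and 574 CPM in neutrophils, against 203, 112, 150 and 111 CPM in macrophages (log2 fold change 1.83, adjusted p = 0.0233). Sdf2l1, of the chaperones of the endoplasmic reticulum, had 35.8, 0 and 10.3 CPM in neutrophils, against 90.2, 67.3, 195 and 162 CPM in macrophages (log2 fold change -3.23, adjusted p = 0.0311); Calr was the other lower gene. Of 18 tested interferon response genes only Bst2, the virus-tethering protein, was called, a share near the 5.78% lower over all genes. Bst2 fell by 2.11 (adjusted p = 0.0233), while the median of the list was 0.87.

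Cell cycle genes were little captured, and macrophages of hashtag 7 (5 cells) stood above the other sums. The summed list had 1443, 2388 and 2962 CPM in neutrophils, against 1690, 1868, 1876 and 4243 CPM in macrophages. Of 7 tested, Ccnd3, a cyclin of leukocytes, rose by 1.56 (adjusted p = 0.0324), while Tubb5, a beta-tubulin, and Ccnd1 were lower. Tubb5 had 59.6, 73.3 and 41.0 CPM in neutrophils, against 270, 179, 375 and 845 CPM in macrophages (log2 fold change -2.79, adjusted p = 0.0227). With the block, 8 of the 14 tested among these 15 calls of regulators were lost: Cebpb (adjusted p = 0.0667), Nfkbiz (0.0581), Junb (0.0927), Ppp1r15a (0.102), Bax (0.153), Bst2 (0.0615), Tubb5 (0.0707) and Ccnd3 (0.0967), with 1.3e-05 to 0.153 over all alternatives of these 8. All 15 (with Klf4, Birc3, Tnfaip2, Ier3, Dusp1, Btg2 and Sdf2l1) were lost without the neutrophil sum of hashtag 3 (0.0579 to 0.133) and without that of hashtag 6 (0.0689 to 0.147). Leaving out the neutrophil sum of hashtag 2 ended 2 (up to 0.0854), and leaving out the macrophage sum of hashtag 2, 3, 4 or 7 ended 10, 3, 9 or 6 of 14 (up to 0.112, 0.0881, 0.0875 and 0.0934).

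Surface antibody counts gave a readout that the definition did not use. MHCII had a mean of 22.3, 24.8 and 18.3 counts per cell in neutrophils of hashtags 2, 3 and 6, against 18.3, 296, 219 and 88.4 counts in macrophages of hashtags 2, 3, 4 and 7. The macrophages of hashtag 2 lay within the neutrophil range and the other 3 far above it; in Cd74, H2-Aa and H2-DMb1 transcripts hashtag 2 was likewise the lowest macrophage sum. CD24, a surface glycoprotein of neutrophils, had 465, 514 and 442 counts per cell in neutrophils, against 38, 886, 99.2 and 109 counts in macrophages. CD11b, the integrin chain of myeloid cells, had 287, 533 and 448 counts in neutrophils, against 194, 623, 118 and 179 counts in macrophages. In both, macrophages of hashtag 3 were above every neutrophil sum and the other 3 below.

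None of 18 surface antibodies passed an exact two-sided permutation test of the mean log2 counts after Benjamini-Hochberg adjustment. The smallest unadjusted p was 0.114, for MHCII (log2 difference -2.19, adjusted p = 0.600), where 3 against 4 sums allow no p below 0.0286, at which a single antibody could not pass after adjustment, and 0 antibodies had an unadjusted p under 0.05. As a share of all antibody counts of a sum, MHCII made up 1.34%, 1.21% and 1.09% in neutrophils, against 2.62%, 8.32%, 27.3% and 9.09% in macrophages. On that scale MHCII, CD24 and CCR2 did not overlap. For CD24 the gap was very narrow, with 24.99% in neutrophils and 24.90% in macrophages of hashtag 3. CCR2 was lower in neutrophils at the smallest p the design allows (exact permutation p = 0.0286, adjusted p = 0.257), from under 5 counts per cell in every sum.

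**Figure D4:**
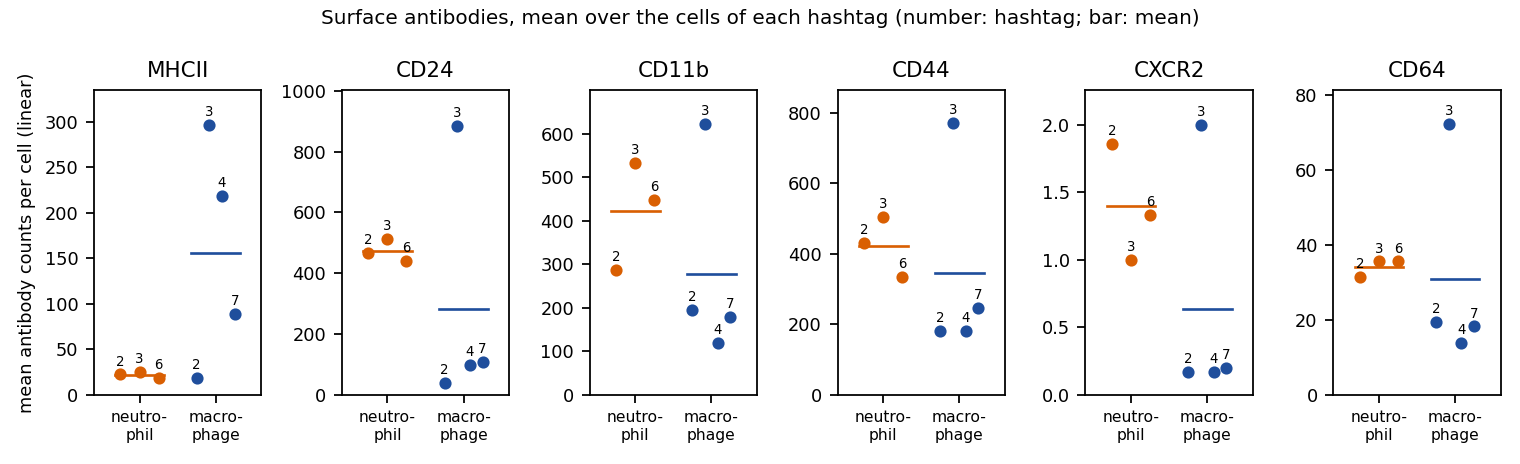
Mean counts per cell of 6 surface antibodies in the 3 neutrophil sums (left, orange) and the 4 macrophage sums (right, blue), on linear axes from 0; each point is a hashtag, with its number, and the bar is the mean. MHCII was 18.3 to 24.8 in neutrophils and 18.3 to 296 in macrophages, and macrophages of hashtag 3 were highest for all 6.

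Markers of other cell types were read in the same sums, and their part in the results was not tested. Summed T and natural killer cell markers (6 genes, 3 tested and none called) had 2075, 0 and 71.8 CPM in neutrophils and 2299, 224, 225 and 0 CPM in macrophages, so both sums of hashtag 2 stood out; Ncr1 was at 0 in all cells of both classes. Summed dendritic cell markers were at 0 in every neutrophil sum and at 0 to 135 CPM in macrophages, with Xcr1 at 0. Summed epithelial or tumor cell markers were at 0 in every neutrophil sum and at 0 to 137 CPM in macrophages, with Krt14 at 0. Endothelial markers had 23.9 to 41.0 CPM in neutrophils and 34.1 to 105 CPM in macrophages. Erythroid and mast cell markers were at 0 in all 7 sums.

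Blood neutrophils of the same definition (6454 cells in another library, averaged over 8 hashtags) are set beside the tumor neutrophils for scale only, since tissue, digestion and library cannot be told apart. Retnlg averaged 842 ± 239 CPM in tumor neutrophils (SD, n = 3) and 10405 ± 2041 CPM in blood neutrophils (SD, n = 8). Csf3r averaged 974 ± 323 CPM and 3564 ± 134 CPM in the same groups. Cxcl2 averaged 14027 ± 10373 CPM in tumor neutrophils and 14.4 ± 11.0 CPM in blood neutrophils, and Thbs1 averaged 5200 ± 1179 CPM and 20.9 ± 15.3 CPM. These differences were not tested.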

How the data were processed

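The deposited values were raw counts without normalization, for 32285 genes and for antibodies (10 hashtags, 18 surface proteins). Cell Ranger 7.0.1 produced them, per the file headers and the submitters' processing notes, which name mm10. The first 8 hashtags were used, and a cell took a hashtag with at least 20 counts and 3 times the second. Counts were summed per hashtag and class (at least 5 cells; 39 neutrophils and 24 macrophages in all) and tested with edgeR 4.0.16 (limma 3.58.1, R 4.3.3) by the quasi-likelihood test, without a block, with total UMIs as library sizes, genes of at least 50 UMIs over the 7 sums and Benjamini-Hochberg adjustment over all tested genes. The 5 genes of the definition were not tested. DESeq2 1.42.0, TMM factors, other filters and thresholds, thinning, a hashtag block and leaving out each sum were the alternatives, and the code was tested on simulated data. Same-numbered sums carry the same hashtag, which was taken as 1 mouse. Their deviations from the class means correlated at 0.24 (hashtag 2) and 0.15 (hashtag 3).

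Members and all 42 gene lists were chosen with earlier results of these data known. Genes were named by rule: the 12 largest and 12 smallest fold changes among calls with a mean of at least 50 CPM in either class (ribosomal, mitochondrial and unnamed genes left out), up to 4 called members of each list with the smallest adjusted p, and Csf3r and Apoe; 15 named genes outside it, and the genes shown per class of cells only, were chosen after their values were seen. Some genes that the rule names are not reported here. Counts of Rpl15, Rps2, Fth1, Cycs, Lilrb4a, Clec4a3, Chil3 and Stfa2l1 are uncertain, since near-identical copies can share their reads. Surface antibodies were tested as log2 of the mean count per cell plus 1. P-values measure the spread between hashtags of 1 library, and depth per sum was 66622 to 178297 UMIs; intervals and limits cover counting error only. Shares of cells are of the sorted cells of the tumor capture, not of the whole tumor. Their exact Clopper-Pearson 95% intervals were 21.2 to 29.3% for neutrophils (25.1%) and 16.0 to 23.4% for macrophages (19.5%).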

Additional observations from a re-analysis of the deposited data

Results flagged for a closer look

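In the 4 macrophage sums, single values stood apart from the other 3 by more than chance allows in about 1 of 20 groups. Where many genes are examined, some values pass this limit by chance. For genes, these were Pf4 in macrophages of hashtag 7 (7845 CPM), Cd72 (570 CPM) and Uqcrb (405 CPM) in those of hashtag 4, and Slc2a3 in those of hashtag 2 (11.3 CPM, from 1 UMI). Macrophages of hashtag 3 stood apart for Arg1 (3006 CPM), Ier3 (982 CPM), Wfdc21 (28.0 CPM) and Fpr1 (28.0 CPM). They also stood apart for mean surface antibody counts per cell, with CD11b at 623, CD24 at 886, CD44 at 771, CD64 at 72.3, CXCR4 at 40.9, ckit at 7.43, CD106 at 4 and CXCR2 at 2. As a share of all antibody counts of that sum, CD11b (17.5%), CD64 (2.03%) and CXCR4 (1.15%) were within the range of the other macrophage sums. The shares of CD24 (24.9%), ckit (0.209%), CD106 (0.112%) and CXCR2 (0.0562%) were above that range, and that of CD44 (21.7%) was below it.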

How the results depend on the processing

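The 361 calls kept their direction in every alternative in which they were tested, but their number did not hold. Against 202 genes higher and 159 lower of 2753 tested (7.34% and 5.78%), no filter on low counts gave 304 and 400 of 12933 (2.35% and 3.09%), a filter of 200 UMIs gave 135 and 43 of 685 (19.7% and 6.28%), each cell thinned to 1000 UMIs gave 44 and 22 of 193 (22.8% and 11.4%), and a hashtag 5 times the second gave 83 and 62 of 1561 (5.32% and 3.97%). Numbers of calls fell with filtering and thinning while the share of genes called rose. The genes called were in part other genes. Only 52 of the 361 calls could be tested after thinning, among them 1 of the 159 lower ones. Of the genes called after thinning, 35 of 44 higher and 1 of 22 lower were among the main calls. Without a filter on low counts, 190 of 304 higher and 122 of 400 lower were. Sums of 3 cells or more, chosen after seeing the data, gave 318 and 437 of 3050. With the hashtag as a replicate block the counts were 89 and 32 of 1898, from 2 hashtags. Over the runs that left out 1 sum each, the count of higher genes ran from 4 to 239 and that of lower genes from 1 to 271. Called members of the lists were 62 higher and 35 lower; they were 40 and 12 with the replicate block, 25 and 17 after thinning, 32 and 23 with a hashtag 5 times the second, 86 lower with no filter, 19 lower at 200 UMIs, 78 lower with stricter thresholds (2 sums against 1, the lone sum being assumed to vary like the others), 103 lower with 3 cells per sum, and 2 to 76 higher and 1 to 83 lower when 1 sum was left out. The cause of these shifts was not tested. Neutrophils were 14.5% of the sorted tumor cells with stricter thresholds, and macrophages 11.0%. Among cells with 1 hashtag, macrophages were 12.9%. No surface antibody was called in any alternative, which says nothing of stability, since alternatives with fewer sums allow no p under 0.05. Sums of at least 10 cells left no macrophage sum and gave no value. At 5 to 17 cells per sum, genes under 50 UMIs over the sums were not tested.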
